A study of Mus musculus with 18 samples.

Results

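The expression of 10 genes for the release and reuptake of calcium in skeletal muscle was described in denervated and sham-operated mouse whisker pad. The members were chosen by name, with earlier results of these data known, as Cacna1s, Ryr1, Jph1, Trdn, Casq1, Casq2, Atp2a1, Atp2a2, Sln, and Dhrs7c. All 10 were found among the 35150 genes of the series. RNA was sequenced from biopsies of skin and muscle of the rostral whisker pad of 9 adult mice. The study as a whole used males and females, and the sex and strain of these 9 mice are not given in the sources used here. In each mouse 2 branches of the right facial nerve, the buccal and the superior marginal, were cut, and the left side had a sham operation in which the nerve was spared. Each mouse gave 1 sample per side at day 1, 3, or 7 after surgery, with 3 mice at each day and 18 samples in 6 groups. Since the lesion was always on the right, side and lesion cannot be told apart. Because the biopsies were bulk tissue, fewer muscle cells and less RNA per muscle cell cannot be told apart either.

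In skeletal muscle, depolarization of the transverse tubule moves the voltage sensor CaV1.1, encoded by Cacna1s, which opens the ryanodine receptor Ryr1 in the membrane of the sarcoplasmic reticulum. Junctophilin (Jph1) holds both membranes together, triadin (Trdn) anchors the calcium-binding protein calsequestrin (Casq1, Casq2) near the release channel, and the SERCA pumps (Atp2a1, Atp2a2) return calcium to the store. Small membrane proteins such as sarcolipin (Sln), phospholamban (Pln), and myoregulin (Mrln) inhibit the pump. Dhrs7c encodes SRP-35, a dehydrogenase of the sarcoplasmic reticulum membrane.

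Levels are given as TPM, transcript abundances that are scaled for transcript length and were deposited after a normalization between samples, with the transcripts of a gene summed. Values of 3 mice are given in the order of their replicate number. The depth was estimated at 10600000 to 33100000 reads per sample, and a member had between 47 and 132939 estimated reads in a sample. Summed TPM of 14 markers of fast muscle ran from 7249 to 43619, those of 8 keratinocyte markers from 4609 to 9647, and those of 7 slow muscle markers from 85.2 to 179. Among the slow markers, Myh7, the slow myosin heavy chain, was at 0.50 TPM or less in every sample. In the sham samples of day 1 the slow marker sum ran only from 123 to 126, while the fast marker sum ran from 7249 to 34866. The slow sum therefore did not follow the content of fast muscle RNA there. The samples of day 1 replicate 1 held the least fast muscle RNA on both sides, with summed TPM of 7249 (sham) and 10342 (denervated). Differences are therefore also given after rescaling each sample to these markers, which shifted the denervated minus sham difference by 0.13, -0.11, and -0.11 on the log2 scale of TPM at days 1, 3, and 7 and put the median difference of all genes at 0.12, -0.12, and -0.06.

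On the sham side the members spanned a wide range of levels. Atp2a1, the pump of fast fibers, was the highest with a median of 5499 TPM over 9 mice. It was followed by Casq1, the fast-fiber calsequestrin, and Trdn at 303 TPM each, and by Cacna1s at 142 TPM. Dhrs7c (94.2 TPM), Atp2a2 (49.1 TPM), Sln (42.5 TPM), and Ryr1 (40.6 TPM) were intermediate, and Casq2 (20.7 TPM) and Jph1 (14.3 TPM) were the lowest. The sham levels of neighbors in this order overlapped in every case, apart from Atp2a1 against Casq1. The order is one of summed TPM. Transcripts of 681, 614, and 1001 bases held 71.8% of Atp2a1, 56.9% of Trdn, and 69.1% of Cacna1s, and a transcript with a retained intron held 45.1% of Casq1. The coding transcripts Cacna1s-206 and Cacna1s-204 held 9.78% and 7.75% of Cacna1s. An order of coding transcripts can therefore differ. Atp2a2, which is also expressed outside muscle, varied least between sham samples, with a highest level 1.56-fold above the lowest, and Dhrs7c varied most, with 14.9-fold. The plot of the 10 genes by sample shows these levels.

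**Figure D1:**
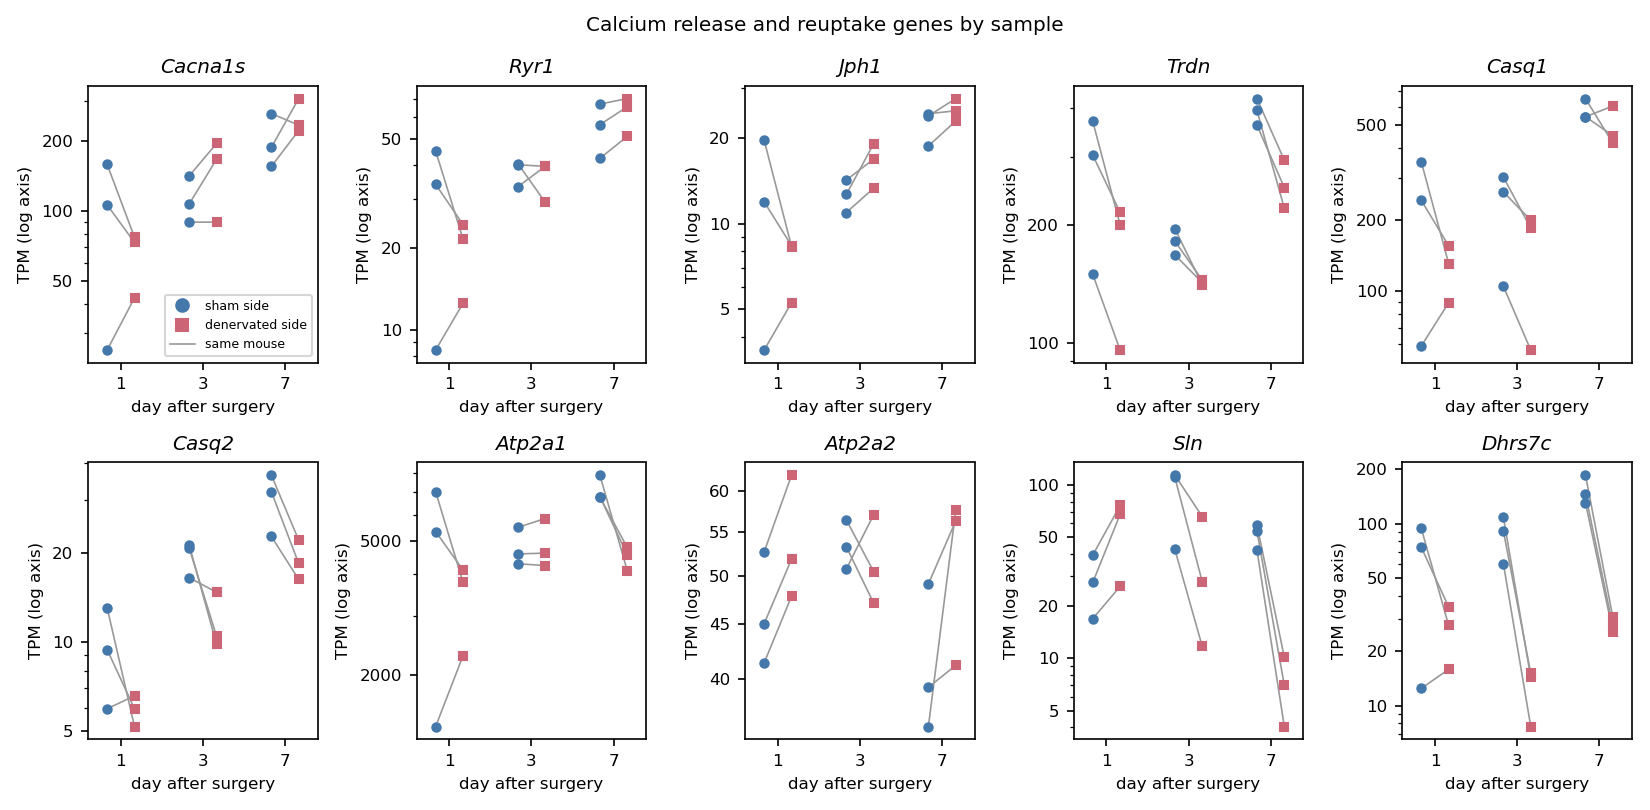
TPM on a log axis of each of the 10 genes in every sample by day after surgery, with circles for the sham side, squares for the denervated side, and lines joining both sides of a mouse. Dhrs7c lies lower on the denervated side in all 6 mice of days 3 and 7, and Sln lies higher at day 1 and lower at days 3 and 7 in all 3 mice of each day.

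The denervated side was tested against the sham side in limma, on log2(TPM + 0.5), and P values were adjusted over all genes tested, with 0.05 as the threshold. The members that passed all fell: 0 of 10 at day 1, 1 of 10 at day 3 (Dhrs7c), 2 of 10 at day 7 (Dhrs7c, Sln), and 2 of 10 over all days (Dhrs7c, Casq2). Of all genes tested, 0% passed at day 1, 1.45% at day 3, 1.53% at day 7, and 3.1% over all days. The shares that passed with a fall were 0.442% at day 3, 0.511% at day 7, and 1.18% over all days, and those with a rise 1.01%, 1.01%, and 1.92%. At an unadjusted P under 0.05, the counts were 0, 3, 5, and 4 of 10 members, against 4.29%, 14.7%, 12.3%, and 14.7% of all genes. The median log2 difference of the members was -0.36, -0.21, -0.44, and -0.37 in the same order, and that of all genes was 0.01, -0.01, 0.04, and 0.01. When the mouse entered as a block, 0, 1, 2, and 3 members passed, with Trdn as the third over all days, against 0%, 1.45%, 2.17%, and 3.5% of all genes. The groups did not overlap, with the denervated side below, for 0 of 10 members at day 1, 3 at day 3 (Casq2, Dhrs7c, Trdn), and 5 at day 7 (Atp2a1, Casq2, Sln, Dhrs7c, Trdn), and for 3.95%, 9.82%, and 7.06% of all genes. No member was above the sham side without overlap. The share of all genes above it is not given here, so that count cannot be set beside one. Since the members were chosen with earlier results of these data known, their counts beside all genes are a description and not a test of the list.

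Cacna1s and Ryr1, the voltage sensor and the release channel, did not pass at any day. Ryr1 had 8.42, 34.1, and 45.1 TPM on the sham side and 12.5, 24.3, and 21.5 TPM on the denervated side at day 1. At day 7 it had 67.1, 56.4, and 42.4 TPM on the sham side and 70.3, 65.6, and 51.1 TPM on the denervated side. The denervated value was higher in 3 of 3 mice at day 7 but the groups overlapped, and the log2 difference was 0.18 ± 0.20 (SE; adjusted P = 0.78, limma, n = 3 mice). Over all days the difference of Ryr1 was -0.08 ± 0.24 (adjusted P = 0.94, limma).

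Cacna1s had 89.8, 142, and 108 TPM on the sham side and 89.8, 196, and 168 TPM on the denervated side at day 3. At day 7 the values were 264, 188, and 156 TPM and 235, 306, and 223 TPM. The groups overlapped at both days, with log2 differences of 0.37 ± 0.32 (adjusted P = 0.67, limma) and 0.35 ± 0.22 (adjusted P = 0.60). Of the summed TPM of Cacna1s, 69.1% fell to a processed transcript of 1001 bases, Cacna1s-203, so the sum mostly follows that transcript. The coding transcript Cacna1s-206 was at 18.5 ± 4.47 TPM (SD, n = 3) on the sham side and 33.5 ± 8.47 TPM on the denervated side at day 7, without overlap, and did not pass the test across transcripts. Weighting each transcript by its length put the day 7 difference of the gene at 0.64 ± 0.19 (adjusted P = 0.22, limma).

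Jph1, which links the tubule to the sarcoplasmic reticulum, had 10.96, 12.7, and 14.3 TPM on the sham side and 13.3, 19.1, and 16.9 TPM on the denervated side at day 3. The denervated side was higher in 3 of 3 mice at days 3 and 7 and the groups overlapped at both. The differences were 0.36 ± 0.16 at day 3 (adjusted P = 0.38, limma) and 0.17 ± 0.14 at day 7 (adjusted P = 0.69).

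Trdn, the triadin gene, was lower on the denervated side in all 9 mice. At day 3 it had 182, 168, and 196 TPM on the sham side and 145, 143, and 141 TPM on the denervated side. At day 7 it had 394, 423, and 361 TPM and 222, 294, and 250.2 TPM. The groups did not overlap at days 3 and 7. The differences were -0.67 ± 0.44, -0.35 ± 0.09, and -0.63 ± 0.14 at days 1, 3, and 7 (adjusted P = 1.00, 0.16, and 0.11, limma), and -0.55 ± 0.17 over all days. The last did not pass without the mouse as a block (adjusted P = 0.093) and passed with it (adjusted P = 0.0026, limma). It also passed without the block when day 1 replicate 1 was left out (adjusted P = 0.00060) or after rescaling to equal sums (adjusted P = 0.048). The transcripts of Trdn did not move alike. Trdn-205, a short transcript of 614 bases with 56.9% of the summed TPM, had 208, 255, and 218 TPM on the sham side and 76.9, 144, and 104 TPM on the denervated side. The transcript of 4514 bases, Trdn-201, had 99.7, 86.7, and 66.5 TPM and 96.0, 88.3, and 102.3 TPM. With length-weighted sums the day 7 difference of Trdn was -0.13 ± 0.13 (adjusted P = 0.74) and that over all days -0.38 ± 0.20 (adjusted P = 0.38, limma). Of the Trdn transcripts, Trdn-202 passed over all days with -0.73 ± 0.14 (adjusted P = 0.019 across transcripts, limma; 0.078 with the block), where 0.372% of all transcripts passed with a fall.

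The calsequestrin genes encode the main calcium buffers of the store. Casq2 (chr3:102086415-102146514 of GRCm38, plus strand), the cardiac and slow-fiber form, had 5.95, 9.42, and 13.03 TPM on the sham side and 6.58, 5.95, and 5.19 TPM on the denervated side at day 1. At day 3 it had 20.7, 21.1, and 16.5 TPM and 10.4, 9.81, and 14.7 TPM, and at day 7 36.5, 32.1, and 22.7 TPM and 22.0, 18.4, and 16.2 TPM. It was lower on the denervated side in 8 of 9 mice, and the groups did not overlap at days 3 and 7. The difference was -0.65 ± 0.13 over all days (adjusted P = 0.011, limma, n = 9 mice). By day it was -0.58 ± 0.28, -0.73 ± 0.18, and -0.66 ± 0.21, none of which passed alone (adjusted P = 1.00, 0.14, and 0.26). Without day 3 replicate 2 the adjusted P over all days was 0.055, and after rescaling to the fast muscle markers it was 0.50. The difference after rescaling was -0.68, and 161 of all genes passed in that fit against 457 before. With both the rescaling and the block, the adjusted P of Casq2 over all days was 0.0074 (limma). Of its coding transcripts, Casq2-201 held 79.2% of the summed TPM and differed by -0.29 ± 0.29 at day 7 (adjusted P = 0.82 across transcripts, limma). Casq2-205 had 8.30, 3.29, and 7.88 TPM on the sham side and 0, 0.359, and 0 TPM on the denervated side at day 7. Its call there (adjusted P = 0.049, limma; 0.18 with the block) was not read as a change, since an estimate of 0 can be a failed split between transcripts. Casq2 had 161 to 1030 estimated reads per sample.

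Casq1 had 105, 303, and 262 TPM on the sham side and 56.6, 184, and 199 TPM on the denervated side at day 3, with a lower denervated value in 3 of 3 mice. At day 7 the values were 648, 544, and 544 TPM and 421, 452, and 603 TPM. The groups overlapped at every day and no difference passed, with -0.47 ± 0.32 over all days (adjusted P = 0.59, limma). A transcript with a retained intron, Casq1-202, held 45.1% of the summed TPM of the gene, and the coding transcript Casq1-201 held 54.8%. At day 7 Casq1-202 was at 277 ± 26.0 TPM (SD, n = 3) on the sham side and 164 ± 66.5 TPM on the denervated side, without overlap. Casq1-201 was at 301 ± 44.2 TPM and 327 ± 93.2 TPM, with overlap. At day 3 both transcripts had lower means on the denervated side, with overlap. As a share of both calsequestrins, Casq2 made up 4.96 ± 0.843% (SD, n = 3) on the sham side and 3.83 ± 1.18% on the denervated side at day 7. Over 9 mice this share differed by -0.776 ± 1.05 percentage points (SD) and was lower in 7 of 9 mice (exact sign-flip P = 0.055, two-sided; 0.16 adjusted over 3 ratios). When each of the 9 mice was left out in turn, the exact P ran from 0.023 to 0.11, unadjusted. It was under 0.05 in 2 cases, without day 1 replicate 3 (0.047) or day 3 replicate 3 (0.023).

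Atp2a1 (chr7:126445858-126463108, minus strand), which encodes SERCA1, was lower on the denervated side in 3 of 3 mice at day 7, with 7879, 6799, and 6779.8 TPM on the sham side and 4090.4, 4556, and 4794 TPM on the denervated side and no overlap. The difference of -0.67 ± 0.13 did not pass (adjusted P = 0.077, limma). It passed when only genes with at least 5 TPM in 47% of the samples were tested (adjusted P = 0.042). At day 3 the values were 5499, 4585, and 4288 TPM and 5847, 4611, and 4232 TPM, and the difference was 0.03 ± 0.19 (adjusted P = 0.97), with its sign turned by rescaling to equal sums or to the fast muscle markers. Of the summed TPM, 71.8% fell to Atp2a1-202, a short transcript of 681 bases, and length-weighted sums gave -0.46 ± 0.14 at day 7 (adjusted P = 0.25).

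Atp2a2 had 36.1, 39.3, and 49.1 TPM on the sham side and 57.6, 41.2, and 56.3 TPM on the denervated side at day 7. Its difference was lowest at day 3 (-0.06 ± 0.10, adjusted P = 0.87, limma) and highest at day 7 (0.31 ± 0.18, adjusted P = 0.56), and none passed. As a share of summed Atp2a1 and Atp2a2 it made up 0.583 ± 0.132% (SD, n = 3) on the sham side and 1.15 ± 0.247% on the denervated side at day 7. This share was higher in 3 of 3 mice there and in 6 of 9 over all days, with a mean difference of 0.186 ± 0.556 percentage points (SD; exact sign-flip P = 0.34, 0.34 adjusted over 3 ratios). When each of the 9 mice was left out in turn, the exact sign-flip P of this share ran from 0.039 to 0.62, unadjusted. It was under 0.05 in 1 case, without day 1 replicate 1, where the mean difference was 0.330 percentage points.

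Atp2a2 makes 2 pump forms that differ at the end of the coding sequence: SERCA2a, the form of slow and cardiac muscle, and SERCA2b, the form of most other cells. The 2 ends are shown because the gene sum combines the transcripts of both forms. In the GENCODE transcripts both share 2983 coding bases, of which the last 30 are in lower case. The coding bases that belong to 1 form only are in capitals, at chr5:122454291-122454304 for SERCA2a and at chr5:122457151-122457302 for SERCA2b (GRCm38, minus strand), each up to and with the stop codon.
Atp2a2-202: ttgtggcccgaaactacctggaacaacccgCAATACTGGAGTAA
Atp2a2-201: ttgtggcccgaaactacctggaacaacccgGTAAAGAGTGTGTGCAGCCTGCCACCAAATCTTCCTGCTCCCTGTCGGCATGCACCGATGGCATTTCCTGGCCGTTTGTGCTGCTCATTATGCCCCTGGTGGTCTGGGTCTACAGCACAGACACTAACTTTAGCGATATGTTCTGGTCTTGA

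The SERCA2a transcript, Atp2a2-202, codes for 998 residues and was at 2.173, 2.34, and 2.03 TPM on the sham side and 2.59, 2.05, and 2.20 TPM on the denervated side at day 1. At day 3 it had 4.69, 3.77, and 2.61 TPM and 6.26, 6.96, and 11.8 TPM, and at day 7 3.503, 3.58, and 4.22 TPM and 10.1, 7.46, and 6.68 TPM. The denervated side was above the sham side without overlap at days 3 and 7, and higher in 8 of 9 mice in all. The difference of 0.70 ± 0.17 over all days did not pass across transcripts (adjusted P = 0.067, limma), nor did that of 1.06 ± 0.30 at day 3 (adjusted P = 0.33) or of 0.99 ± 0.21 at day 7 (adjusted P = 0.19). In a ratio added after the values were seen, and so given with no test, the share of Atp2a2-202 in Atp2a2 was 6.85 ± 1.6% (SD, n = 3) on the sham side and 16 ± 4.25% on the denervated side at day 3. At day 7 it was 9.14 ± 0.564% (SD, n = 3) on the sham side and 15.9 ± 3.46% on the denervated side.

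The reads of Atp2a2 could not be split between its transcripts with certainty. Of all stretches of 30 bases, 98.9% of those in Atp2a2-201, which codes for SERCA2b, and 99.3% of those in Atp2a2-202 also stand in Atp2a2-203. Atp2a2-203 is annotated as a target of nonsense-mediated decay and holds the bases of both ends. It had 73.0% of the summed TPM and was at 31.6, 29.998, and 37.2 TPM on the sham side and 42.9, 39.6, and 44.1 TPM on the denervated side at day 3. Atp2a2-201 was at 19.7, 18.4, and 9.89 TPM on the sham side of day 3 and listed at 0 or near it in the 3 denervated samples. It was also listed at 0 or near it in 2 of 3 sham samples at day 1 and at day 7. Its call at day 3 (adjusted P = 0.0074 across transcripts, limma; 0.065 with the block) was therefore not read as a change, since an estimate of 0 can be a failed split.

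**Figure D2:**
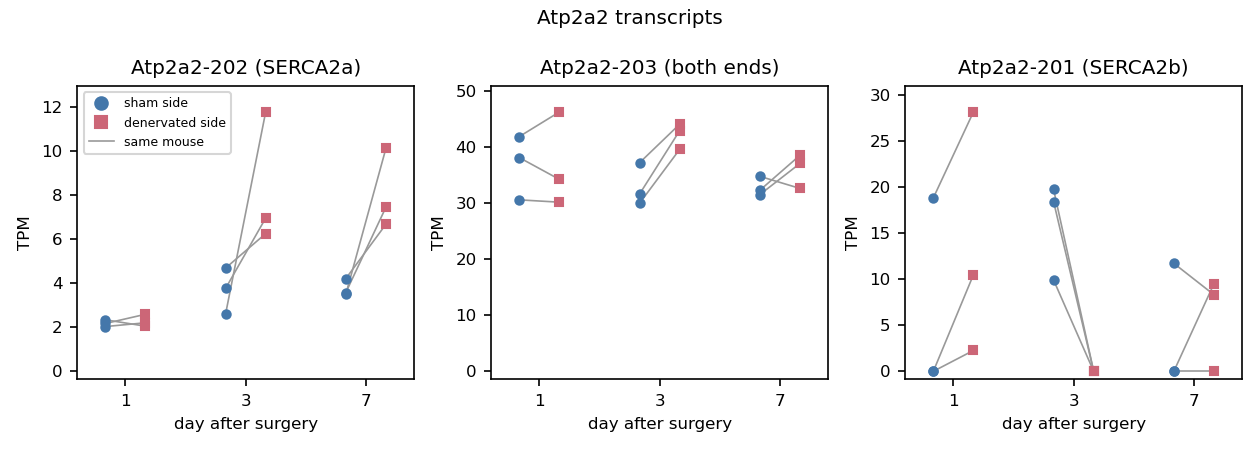
TPM on linear axes of the 3 Atp2a2 transcripts with at least 5% of the summed TPM, by sample and day, with circles for sham, squares for denervated, and lines joining both sides of a mouse. Atp2a2-202 lies at 6.26 TPM or more in the 6 denervated samples of days 3 and 7 and at 4.69 TPM or less in every sham sample. Atp2a2-201 lies at 0 or near it in the 3 denervated samples of day 3. It also does so in some but not all samples of the sham side at day 1 and of both sides at day 7.

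Of the small inhibitors of the pump, Sln fell at day 7, Pln rose at day 7 and over all days, and Mrln rose at day 3 and over all days. Each encodes a single short membrane protein, and the whole coding sequences are shown because these genes carry the calls among the pump inhibitors. Start and stop codons are in capitals. The coding sequences are at chr9:53853473-53853568 for Sln (31 codons before the stop), chr10:53343864-53344022 for Pln (52 codons), and chr10:70219496-70219636 for Mrln (46 codons), each in 1 exon on the plus strand of GRCm38. Pln and Mrln are not members but come from a list of 30 further coupling genes.
Sln-201: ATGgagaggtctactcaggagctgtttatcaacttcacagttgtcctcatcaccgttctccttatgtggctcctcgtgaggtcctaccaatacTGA
Pln-201: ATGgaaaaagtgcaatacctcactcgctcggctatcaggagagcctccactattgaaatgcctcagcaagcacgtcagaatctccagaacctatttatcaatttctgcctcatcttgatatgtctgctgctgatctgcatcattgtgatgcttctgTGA
Mrln-201: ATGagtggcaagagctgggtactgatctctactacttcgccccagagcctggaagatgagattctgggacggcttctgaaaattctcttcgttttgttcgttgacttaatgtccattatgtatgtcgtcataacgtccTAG

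The mean difference of Sln changed its direction between days. At day 1 it had 16.9, 39.3, and 27.4 TPM on the sham side and 26.0, 76.1, and 67.6 TPM on the denervated side. At day 3 it had 114, 42.5, and 111 TPM and 65.7, 11.7, and 27.7 TPM, and at day 7 42.1, 54.2, and 58.8 TPM and 4.05, 7.00, and 10.1 TPM. The denervated value was higher in 3 of 3 mice at day 1, lower in 3 of 3 at day 3, and lower in 3 of 3 at day 7, and the groups overlapped at days 1 and 3 but not at day 7.

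The day 7 difference of Sln was -2.86 ± 0.31 (SE; adjusted P = 0.0093, limma, n = 3 mice). Those at day 1, 0.94 ± 0.48, and day 3, -1.53 ± 0.67, did not pass (adjusted P = 1.00 and 0.36). Without day 7 replicate 1 or 2 the day 7 call was lost (adjusted P = 0.10 and 0.20), and then 1 and 5 of all genes passed. The change between days was tested as an interaction. It was -2.47 ± 0.82 from day 1 to day 3 and -3.80 ± 0.82 from day 1 to day 7, which did not pass without the block (adjusted P = 0.33 and 0.11, limma) and passed with the mouse as a block (adjusted P = 0.022 and 0.0088), where 0.461% and 0.142% of all genes passed. The change to day 7 also passed without the block when day 3 replicate 2 was left out (adjusted P = 0.048).

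Without the block, 0 of 10 members passed in the 3 comparisons between days with limma, and 2, 1, and 0 of 10 did so at an unadjusted P under 0.05 for day 3 minus day 1, day 7 minus day 1, and day 7 minus day 3. Of all genes, 0.122%, 0.163%, and 0% passed, and 9.22%, 7.14%, and 6.86% were past the unadjusted threshold. Relative to its target, the log2 ratio of Sln to summed Atp2a1 and Atp2a2 was -7.13 ± 0.372 (SD, n = 3) on the sham side and -9.42 ± 0.553 on the denervated side at day 7. At day 1 it was -7.18 ± 0.796 and -6.03 ± 0.404. There the ratio was higher on the denervated side in 2 of 3 mice, with -6.43 (sham) and -6.49 (denervated) in replicate 1. Over 9 mice the mean difference was -0.905 ± 1.70 (exact sign-flip P = 0.15, 0.23 adjusted over 3 ratios). With each mouse left out in turn, the exact P ran from 0.039 to 0.27, unadjusted. It was under 0.05 in 1 of 9 cases, without day 1 replicate 3, where the mean difference was -1.29.

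Pln, which encodes the pump inhibitor of slow and cardiac muscle, was higher on the denervated side at days 3 and 7. It had 2.29, 2.58, and 1.88 TPM on the sham side and 8.52, 37.6, and 28.3 TPM on the denervated side at day 3, and 3.83, 3.74, and 4.46 TPM and 36.8, 27.2, and 21.3 TPM at day 7. At day 1 every sample was at 3.10 TPM or less. The groups did not overlap at days 3 and 7. Pln rose by 2.65 ± 0.21 at day 7 (adjusted P = 0.0036, limma) and by 1.80 ± 0.42 over all days (adjusted P = 0.025; 0.073 with the block), and its difference of 2.97 ± 0.52 at day 3 did not pass (adjusted P = 0.056) but did so in 5 of 12 alternatives, such as all 18 samples in 1 fit (adjusted P = 0.0012), and without day 3 replicate 1 (0.020). Without day 7 replicate 1 or 2 the adjusted P at day 7 was 0.10 and 0.13, and over all days it was between 0.059 and 0.10 when any mouse of day 3 or 7 was left out. The change of Pln from day 1 to day 3, 3.18 ± 0.61, passed with the block (adjusted P = 0.048) and not without it (0.061). Pln had 18 to 774 estimated reads per sample.

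Mrln, the myoregulin gene of skeletal muscle, had 19.1, 18.3, and 22.6 TPM on the sham side and 61.1, 68.4, and 51.9 TPM on the denervated side at day 3, without overlap. At day 7 it had 30.8, 46.2, and 42.7 TPM and 48.9, 65.9, and 66.9 TPM, again without overlap. It rose by 1.57 ± 0.14 at day 3 (adjusted P = 0.0053, limma) and by 0.88 ± 0.22 over all days (adjusted P = 0.034), and its difference at day 7, 0.60 ± 0.20, did not pass (adjusted P = 0.28). Leaving out a mouse of day 3 gave an adjusted P of 0.067, 0.13, and 0.068 at day 3 for replicates 1, 2, and 3. Over all days the adjusted P was 0.074 after rescaling to the fast muscle markers, 0.057 without day 1 replicate 2, and between 0.065 and 0.13 without any 1 mouse of day 3 or 7.

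As Pln and SERCA2a are known from slow muscle, the slow markers are given beside them. Of 7 slow markers, 5 could be tested at day 7 and 1 passed, against 1.53% of all genes. This was Tnnt1, the slow troponin T, with 15.9, 21.4, and 13.5 TPM on the sham side and 46.9, 58.9, and 61.5 TPM on the denervated side (1.71 ± 0.20, adjusted P = 0.011, limma). The summed TPM of the 7 slow markers ran from 85.2 to 135 on the sham side and from 130 to 179 on the denervated side at day 7. At day 3, when Pln was also higher, the sum ran from 135 to 146 (median 146) on the sham side. On the denervated side it ran from 126 to 178 (median 131). Of the slow markers, 4 could be tested at day 3 and 0 passed, against 1.45% of all genes. The part of slow fibers in the rise of Pln was not tested, and Myh7 and Myl3 were below 1 TPM in every sample.

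**Figure D3:**
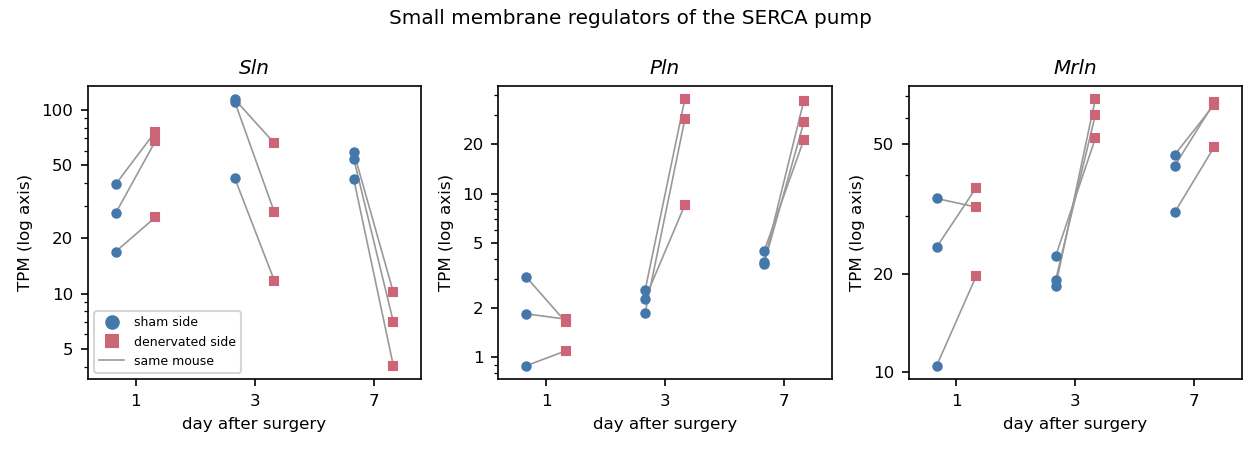
TPM on a log axis of Sln, Pln, and Mrln in every sample by day, with circles for sham, squares for denervated, and lines joining both sides of a mouse. At day 7 denervated Sln lies at 4.05 to 10.1 TPM below sham values of 42.1 to 58.8 TPM, and denervated Pln at 21.3 to 36.8 TPM above sham values of 3.74 to 4.46 TPM.

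Dhrs7c (chr11:67798187-67816002, plus strand) was lower on the denervated side in every mouse of days 3 and 7. It had 12.4, 74.2, and 94.2 TPM on the sham side and 15.9, 34.9, and 27.6 TPM on the denervated side at day 1. At day 3 the values were 60.3, 109, and 91.2 TPM and 7.68, 14.3, and 15.1 TPM, and at day 7 185, 145, and 130.4 TPM and 30.6, 27.3, and 25.5 TPM. The groups overlapped at day 1, when the denervated value was higher in replicate 1 and lower in the other mice, and were apart at days 3 and 7.

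On the log2 scale Dhrs7c changed by -2.78 ± 0.31 at day 3 (SE; adjusted P = 0.013, limma), -2.43 ± 0.16 at day 7 (adjusted P = 0.0023), and -2.01 ± 0.37 over all days (adjusted P = 0.0050). At day 1 the difference of -0.83 ± 0.77 did not pass (adjusted P = 1.00). These 3 calls held under each of the 12 alternatives at days 3 and 7 and 11 over all days that kept all mice. Leaving out day 3 replicate 2 or 3 gave an adjusted P of 0.19 in each case at day 3, and day 7 replicate 1 or 2 gave 0.070 and 0.097 at day 7. Over all days the call held without any 1 mouse, with an adjusted P of 0.027 or less. The change from day 1 to day 3, -1.95 ± 0.78, and from day 1 to day 7, -1.60 ± 0.78, did not pass (adjusted P = 0.48 and 0.72). The coding transcript Dhrs7c-205 held 90.5% of its TPM and passed at days 3 and 7 and over all days across transcripts (adjusted P = 0.035, 0.013, and 0.010, limma), as did 0.299%, 0.385%, and 0.912% of all transcripts. With the block it passed over all days (adjusted P = 0.020; 0.716% of transcripts) and not at day 3 (0.060) or day 7 (0.093), where 0 transcripts in all passed.

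Differences between both sides of the same mouse were also tested with exact sign-flip tests over 9 mice, whose smallest possible P is 0.0039. Trdn was lower in 9 of 9 mice (mean -0.55 ± 0.21, SD; exact P = 0.0039), as were 1.42% of all genes tested. Casq2 (-0.65 ± 0.44) and Dhrs7c (-2.01 ± 1.05) were lower in 8 of 9 mice (exact P = 0.0078 each), and Casq1 (-0.47 ± 0.59) in 7 of 9 (exact P = 0.047). These 4 of 10 members were past an unadjusted P of 0.05, as were 16.2% of all genes, and after adjustment over all genes no member and no gene passed (adjusted P = 0.12 for Trdn, exact test). Sln was lower in 6 of 9 mice (-1.15 ± 1.72, exact P = 0.086). The 2 main Casq1 transcripts did not move alike. Casq1-202, with a retained intron, had an exact sign-flip P of 0.0078 (0.21 adjusted over transcripts). The coding Casq1-201 had an exact sign-flip P of 0.28 (0.73 adjusted).

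The differences at day 1 are set beside the muscle content of the samples here. The mean log2 level of the fast muscle markers differed between the sides of a mouse by 0.61, -0.20, and -0.81 in replicates 1, 2, and 3 at day 1, and by -0.02 to 0.32 at days 3 and 7. Ryr1 differed by 0.54, -0.48, and -1.05 in the same 3 mice, and its SD of 0.809 fell to 0.137 after rescaling to the markers. Casq2 at day 1 went from -0.58 ± 0.69 (SD) to -0.46 ± 0.03, and Dhrs7c from -0.83 ± 1.07 to -0.70 ± 0.39, and each was then lower in 3 of 3 mice. In all, the SD over 3 mice at day 1 was smaller after rescaling for 7 of 10 members and larger for Trdn, Atp2a2, and Sln. For Atp2a2 it went from 0.0203 to 0.687. With both the rescaling and the block, an alternative added after the data were seen, 5 of 10 members passed at day 7 with a fall: Sln, Dhrs7c, Atp2a1 (adjusted P = 0.041), Casq2 (0.024), and Trdn (0.029, limma), where 1.77% of all genes passed with a fall. In that fit the changes of Dhrs7c from day 1 passed for day 3 (-2.19, adjusted P = 0.0075) and for day 7 (-1.83, adjusted P = 0.025), where 0.424% and 0.185% of all genes passed with a fall. That fit used plain sums, with no weighting by transcript length. Of the 14 markers behind the rescaling, 2 passed with a rise and 2 with a fall at day 7 on the deposited scale without the block, against 1.53% of all genes. Their median log2 difference was 0.30, so the markers themselves differed between the sides.

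**Figure D4:**
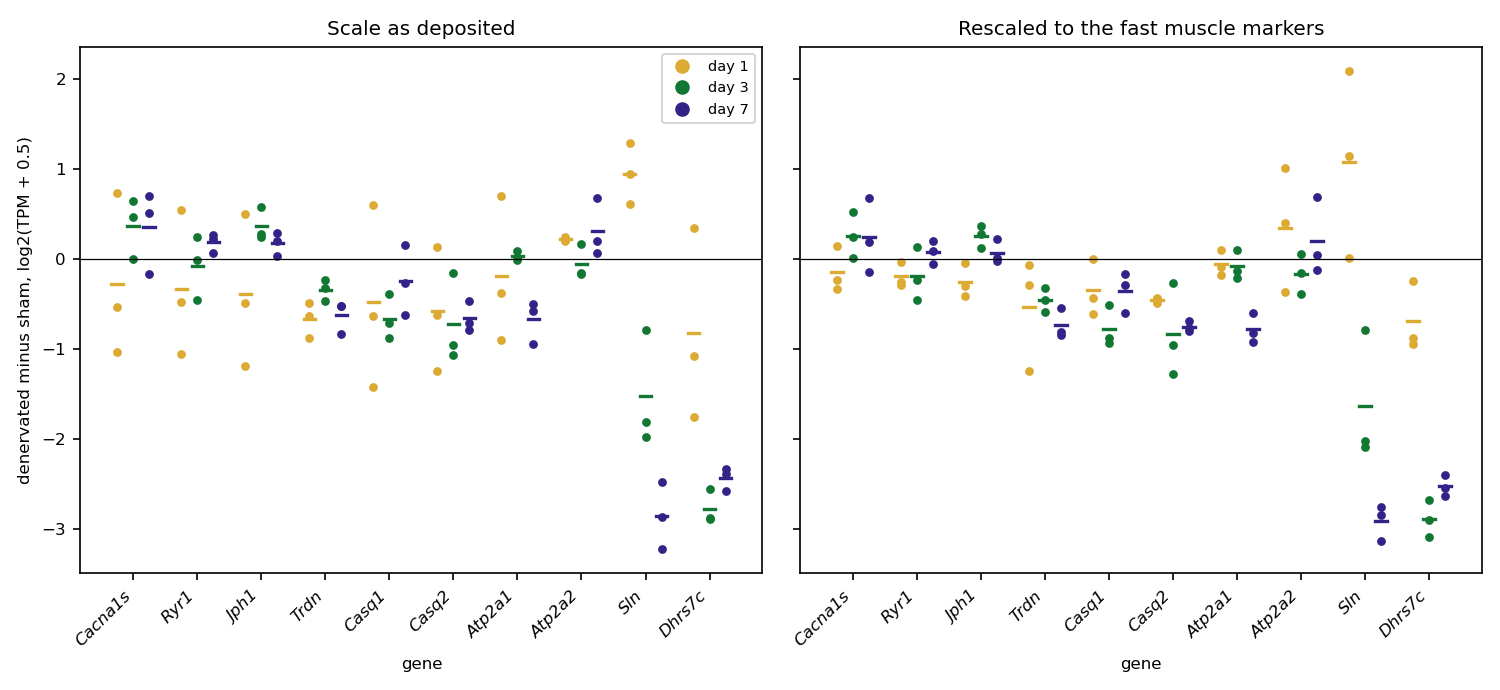
Denervated minus sham log2(TPM + 0.5) of each of the 10 genes, with 1 point per mouse, bars at the mean of 3 mice, and colors for the day, on the scale as deposited (left) and after rescaling to the fast muscle markers (right). The day 1 points of Ryr1, Cacna1s, Jph1, and Atp2a1 draw together on the right, and those of Sln and Dhrs7c at days 3 and 7 stay below 0 on both scales.

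Of 30 further genes of coupling and calcium handling, 29 were matched by symbol, and 26 to 28 could be tested at each day. Those that passed were 0 at day 1, 2 higher and 1 lower at day 3, 2 higher at day 7, and 2 higher over all days. Of all genes, 1.01% passed with a rise and 0.442% with a fall at day 3, 1.01% with a rise at day 7, and 1.92% with a rise over all days. The median difference of the list was -0.19, 0.09, 0.11, and 0.03 at days 1, 3, and 7 and over all days, and that of all genes 0.01, -0.01, 0.04, and 0.01. Besides Pln and Mrln, Hrc, Stim1, and Tmem38b passed at 1 day each.

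Hrc, a calcium-binding protein of the store that binds triadin, had 137, 179.8, and 146 TPM on the sham side and 46.8, 58.7, and 77.8 TPM on the denervated side at day 3. The fall was -1.35 ± 0.20 (adjusted P = 0.037, limma), and at day 7 it was lower without overlap but did not pass (-0.60 ± 0.14, adjusted P = 0.12). Its day 3 call was lost without the filter on low values, after rescaling to equal sums, without the variance trend, and with all 18 samples in 1 fit (adjusted P = 0.052, 0.051, 0.057, and 0.22), and without replicate 1, 2, or 3 (0.11, 0.43, and 0.16). Over all days it passed with the block (adjusted P = 0.038; 0.094 without), after rescaling to the fast muscle markers (0.016), and without day 1 replicate 1 (0.00037).

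Stim1, the calcium sensor of store-operated entry, had 61.5, 55.2, and 57.0 TPM on the sham side and 86.8, 89.0, and 105 TPM on the denervated side at day 3, a difference of 0.68 ± 0.10 (adjusted P = 0.039, limma; 0.067 with the block). This call was also lost after rescaling to equal sums (0.16) or to the fast muscle markers (0.23), without the trend (0.069), with all 18 samples in 1 fit (0.17), and without replicate 1, 2, or 3 (0.099, 0.47, and 0.28). Over all days Stim1 passed when day 1 replicate 3 was left out (adjusted P = 0.025; 0.14 with all mice). Tmem38b, a TRIC channel that carries counterions for calcium release, had 17.3, 20.4, and 17.3 TPM on the sham side and 36.2, 35.2, and 35.2 TPM on the denervated side at day 7, a difference of 0.94 ± 0.11 (adjusted P = 0.012). With all 18 samples in 1 fit its adjusted P was 0.18, and without replicate 1, 2, or 3 it was 0.28, 0.18, and 0.095.

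With the block, 3 genes of the list passed that did not pass without it: Cacng1, a subunit of the voltage sensor, over all days (0.93 ± 0.20, adjusted P = 0.031, limma), Bin1, which shapes transverse tubules, at day 7 (0.88 ± 0.13, adjusted P = 0.036), and Pvalb, the calcium buffer parvalbumin of fast fibers, at day 7 (-0.68 ± 0.10, adjusted P = 0.038). These 3 were named after their values were seen. With the block, 3.5% of all genes passed over all days and 2.17% at day 7. Ryr2 could not be tested, since it stayed below 1 TPM in most samples.

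Without the block, 0 of the keratinocyte, fibroblast, Schwann cell, macrophage, and adipocyte markers passed at any day with limma, and at an unadjusted P under 0.05 the most were 4 of 6 Schwann cell markers at day 7, against 12.3% of all genes. With the block, 1 of 6 macrophage markers, Lyz2, the lysozyme gene, rose at day 7 (0.84 ± 0.12, adjusted P = 0.037, limma), where 2.17% of all genes passed. In that fit 5 of 6 macrophage, 5 of 8 keratinocyte, 4 of 6 fibroblast, and 4 of 6 Schwann cell markers were past an unadjusted P of 0.05 at day 7, against 17.7% of all genes. Summed TPM of the macrophage markers at day 7 ran from 146 to 425 on the sham side and from 282 to 631 on the denervated side. Summed TPM of the Schwann cell markers at day 7 ran from 497 to 899 on the sham side and from 406 to 418 on the denervated side. Of the 14 fast muscle markers, 1 passed with a rise and 1 with a fall at day 3 without the block, and 2 in each direction at day 7. Of all genes, 1.01% passed with a rise and 0.442% with a fall at day 3, and 1.01% and 0.511% at day 7. The part of these cells in the differences of the members was not tested.

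The genes whose 9 within-mouse differences were most like those of a member, among 14757 genes, are given as a description. For Sln they were Alpl (r = 0.98), Gpt2 (r = 0.96), and Slc25a25 (r = 0.96). For Ryr1 they were Dirc2, Alox5ap, and Bloc1s6 (r = 0.99, 0.98, and 0.98). For Dhrs7c they were the predicted genes Gm19402, Gm3238, and Gm9507 (r = 0.99, 0.98, and 0.98), whose differences ran from -0.76 to 2.27 where those of Dhrs7c ran from -2.89 to 0.34. All 9 points share the scaling of their samples.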

How the data were processed

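RNA extracted from 18 biopsies, both sides of 9 mice, was made into libraries with a kit that does not mark strand, and sequenced. The authors converted the base calls with bcl2fastq 2.17.1.14, removed duplicates with ParDRe, trimmed with Fastp, quantified GRCm38 Ensembl transcripts with kallisto 0.43.1, and normalized between samples with sleuth. The deposited values are this normalized TPM signal per transcript, which sums to between 833186 and 1143839 per sample. TPM without that step had been assumed when the tests were chosen, and the tests were not changed.

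Of 113194 transcripts, 111450 were matched to gene names of GENCODE M21, and TPM was summed per gene. Reads per sample were estimated from the values, since the depth is not in the deposited table. Each sample's group was taken from its source name and its mouse from its title. The column names of day 7 differ from the titles and were matched by day, side, and sequencing number, and replicates of day 7 are numbered in the order of the samples. Genes with at least 1 TPM in 47% of the samples of a comparison were tested with limma 3.58.1 (R 4.3.3) on log2(TPM + 0.5), with a variance trend and Benjamini-Hochberg adjustment over all genes, without a block as in the study's methods. A fold change on this scale understates changes of low genes. Samples with the same number come from the same mouse, and their deviations from the group means correlated with r between 0.163 and 0.568, so a fit with the mouse as a block was added. Exact two-sided sign-flip tests over 9 mice used Python 3.11.15 and numpy 2.4.6. Scripts were tested on simulated data.

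Members and lists were chosen with earlier results of these data known. The genes named are the 10 members, list genes that passed, those that a setting moved, and for 3 members the 3 genes with the most similar differences. With 3 samples a group, no exact unpaired test of a single day can give P below 0.1, and the bound of a sign-flip test over 3 mice is higher. Alternatives were pseudocounts of 0.1 and 1, other filters, rescaling to equal sums or to fast muscle markers, no trend, all 18 samples in 1 fit, the block, and leaving out each mouse. Length-weighted sums and rescaling with the block were added after the data were seen.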

Additional observations from a re-analysis of the deposited data

Results flagged for a closer look

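Sln was flagged for a change of its response between days, which did not pass in every fit. The change in its denervated minus sham difference was -2.47 on the log2 scale from day 1 to day 3 and -3.80 from day 1 to day 7, and both passed with the mouse as a block (adjusted P = 0.022 and 0.0088, limma) but not without it (0.33 and 0.11). All 3 mice of day 1 had a higher value on the denervated side, and all 3 mice of day 3 and all 3 of day 7 a lower one. After rescaling to the fast muscle markers, day 1 replicate 1 differed by only 0.012 on the log2 scale. Pln, a gene of the list of further coupling genes, changed by 3.18 from day 1 to day 3 with the block (adjusted P = 0.048, limma). Groups of 3 samples were not tested for a sample that stands apart.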

How the results depend on the processing

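Over all alternatives, 169 counts and ratios kept their call, 12 moved, and 5 passed that had not. For single genes, 1137 values kept their direction and call, 27 passed that had not, 48 lost the call, and 21 changed sign. The cause was not tested. Members that passed numbered 1 over all days after rescaling to the fast muscle markers, 1 with the mouse as a block for day 3 minus day 1 and for day 7 minus day 1, and, with both, 5 at day 7, 2 for day 3 minus day 1, and 2 for day 7 minus day 1. Of all genes, 161 of 14631 passed with the rescaling over all days, and 0.461% and 0.142% with the block for the same changes. With both, 514 of 14156, 93 of 14631, and 38 of 14631 genes passed in the same order. The block changed no other count of members beyond 1.5 times. With the main transcript of each gene in place of the sum, the Casq2 share differed by -2.96 percentage points (exact P = 0.043). Atp2a1 at day 3 turned to -0.034 with equal sums and -0.086 with fast marker rescaling, with or without the block, and Stim1 at day 1 turned to 0.10 with the latter, with or without the block.

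Leaving out 1 mouse gave 0 to 1 members at day 3, 0 to 2 at day 7, 1 to 3 over all days, and 0 to 1 for day 7 minus day 1. The mean difference ran from 0.0924 to 0.330 for the Atp2a2 share, -0.993 to -0.581 for the Casq2 share, and -1.29 to -0.71 for the Sln ratio. The sign changed for differences at day 1 of Ryr1 (-0.77 to 0.031), Cacna1s (-0.79 to 0.10), Atp2a1 (-0.64 to 0.16), Jph1 (-0.84 to 0.0041), Pln (-0.42 to 0.059), Stim1 (-0.29 to 0.20), and Tmem38b (-0.35 to 0.11). It changed at day 3 for Ryr1 (-0.24 to 0.11), Atp2a1 (-0.0053 to 0.048), and Atp2a2 (-0.17 to 0.0041), and over all days and within mice for Ryr1 (-0.15 to 0.047) and Jph1 (-0.020 to 0.20). Without 1 mouse of day 3, 0 to 133 of all genes passed at day 3, and without 1 of day 7, 1 to 127 at day 7. Without any 1 mouse, 227 to 692 of all genes passed over all days, and 0 to 82 for day 7 minus day 1.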
